A study of Mus musculus with 58 samples.

Results

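The 37 genes carried by the mouse mitochondrial genome were described in striatum of mice with a 16p11.2 hemideletion or with heterozygous null mutations of 3 of its genes. Members were all genes whose symbol starts with mt-, a rule that uses no measured value. It found 37 of 54532 genes in the RNA-seq tables: 13 mRNA genes, 22 tRNA genes and 2 rRNA genes. The tables of lysate RNA and ribosome footprints listed 18411 genes, of which 13 were members, all of them mRNA genes.

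Mitochondrial DNA is a small circle present in many copies per cell. Both of its strands are transcribed as long precursors that are cut into rRNAs, tRNAs and mRNAs, largely at the tRNAs that lie between the other genes. Its mRNAs encode subunits of complexes I, III and IV of the respiratory chain and of the ATP synthase, and they are translated inside the organelle by its own ribosomes, for which the genome supplies the rRNAs and a full set of tRNAs. Neurons rely on this respiratory chain for most of their ATP.

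16p11.2 del/+ mice carry a hemizygous deletion of the mouse region that corresponds to human 16p11.2. 3g del/+ mice carry null mutations of Taok2, Sez6l2 and Mvp made with CRISPR/Cas9. Each genotype was set against wt (wild-type) littermates, at 10 to 14 weeks of age. All libraries came from striatum and are labelled strain B6129S, whereas the study's methods name C57BL/6J males as the sires used to make the 3g line. By the labels, RNA-seq covered 4 males and 4 females of each genotype in each line, 32 libraries from as many mice. Lysate RNA and ribosome footprints came from the same lysate of each of 13 other mice, all male: 3 wt and 3 del/+ of the 3g line, 4 wt and 3 del/+ of the 16p11.2 line. RNA-seq animals are called by the numbers in the labels, and the 13 other mice by their place in the order of animal numbers within a group.

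RNA-seq libraries held 11711100 to 65529800 counts, lysate libraries 15102600 to 19122500 and footprint libraries 342052 to 678130. The 8 striatal projection neuron markers (Drd1, Drd2, Ppp1r1b and others) were above 0 in every library, with a summed level of 3690 to 6477 CPM (counts scaled to a library total of 1000000) in RNA-seq. Taok2, Sez6l2 and Mvp were lower in 16p11.2 del/+ mice by 0.98 to 1.24 on the log2 scale in males and by 1.06 to 1.19 in females. In 3g del/+ mice Sez6l2 fell by 0.49 in females, the only call there (adjusted p = 0.0034 by edgeR), and stood at -0.57 in males. Mvp stood at -0.37 and -0.48 and Taok2 at -0.02 in both sexes, not called. 3 libraries stood apart. The library labelled 16p11.2 del/+ female 1 held 0.457 CPM of Xist and 38.1 CPM of Ddx3y, while the other 15 female libraries held at least 294 CPM of Xist and no Ddx3y. Labelled males held at most 0.598 CPM of Xist and 28.8 to 58.15 CPM of Ddx3y, so this library is male by both genes. It was kept under its label in the main 16p11.2 female and sex comparisons. The 3g wt male 17 library and the 16p11.2 del/+ male 4 library each resembled the other line in some members, as described below. Several differences below are also given without them.

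In RNA-seq, 7 of the 13 mRNA genes and both rRNA genes held many counts, while 6 neighbouring mRNA genes were nearly missing. RNA-seq followed Ribo-Zero Gold depletion of rRNA, so the rRNA levels here and below are those left after depletion. The 6 genes are mt-Co2, mt-Atp8, mt-Atp6, mt-Co3, mt-Nd3 and mt-Nd4l, and they span positions 7013 to 10173 of the mitochondrial genome in mm10 (GRCm38). They encode 2 subunits of cytochrome c oxidase, 2 of the ATP synthase and 2 of complex I. Together they held 0.135 to 0.494% of the mt- mRNA counts across the 32 RNA-seq libraries, against 28.7 to 31.6% in lysate RNA and 33.8 to 37.1% in footprints. Their summed level was 75.1 to 256 CPM in RNA-seq and 111256 to 155893 CPM in lysate RNA, with no overlap.

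Per kilobase of gene length, the RNA-seq order began with mt-Co1, the catalytic subunit of cytochrome c oxidase, at a median of 13114 CPM per kb (10833 to 17389 over 32 libraries). mt-Cytb of complex III followed at 8845 and the complex I genes mt-Nd1 at 7406, mt-Nd2 at 4473 and mt-Nd4 at 3271. mt-Nd5 at 2676, mt-Nd6 at 2638 and the 12S rRNA gene mt-Rnr1 at 2558 could not be ordered, since mt-Nd5 exceeded mt-Nd6 in 15 of 32 libraries and mt-Nd6 exceeded mt-Rnr1 in 18. The 16S rRNA gene mt-Rnr2 stood at 2400 CPM per kb. Below it the level dropped to 44.1 for mt-Co2, 38.3 for mt-Co3, 33.5 for mt-Atp6, 33.2 for mt-Nd3, 20.2 for mt-Atp8 and 17.6 for mt-Nd4l. The order of the 3 genes mt-Atp6, mt-Nd3 and mt-Atp8 was not stable between libraries, and mt-Atp8 exceeded mt-Nd4l in 16 of 32.

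Lysate RNA of the same tissue had none of this gap. There mt-Atp6, a membrane subunit of the ATP synthase, led with a median of 73863 CPM per kb (62322 to 89915 over 13 libraries), above mt-Atp8 at 70581 in all 13. The lowest member, mt-Nd5, stood at 16172 CPM per kb. As a share of mt- mRNA counts, each of the 6 genes was 78.0 to 467 times higher in lysate RNA than in RNA-seq (ratio of medians), with mt-Atp8 at the upper end and mt-Nd3 at the lower. The 7 other mRNA genes had ratios of 0.396 for mt-Co1 to 1.36 for mt-Nd4. The RNA-seq and lysate tables came from different mice, protocols and genome builds, and these cannot be told apart.

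**Figure D1:**
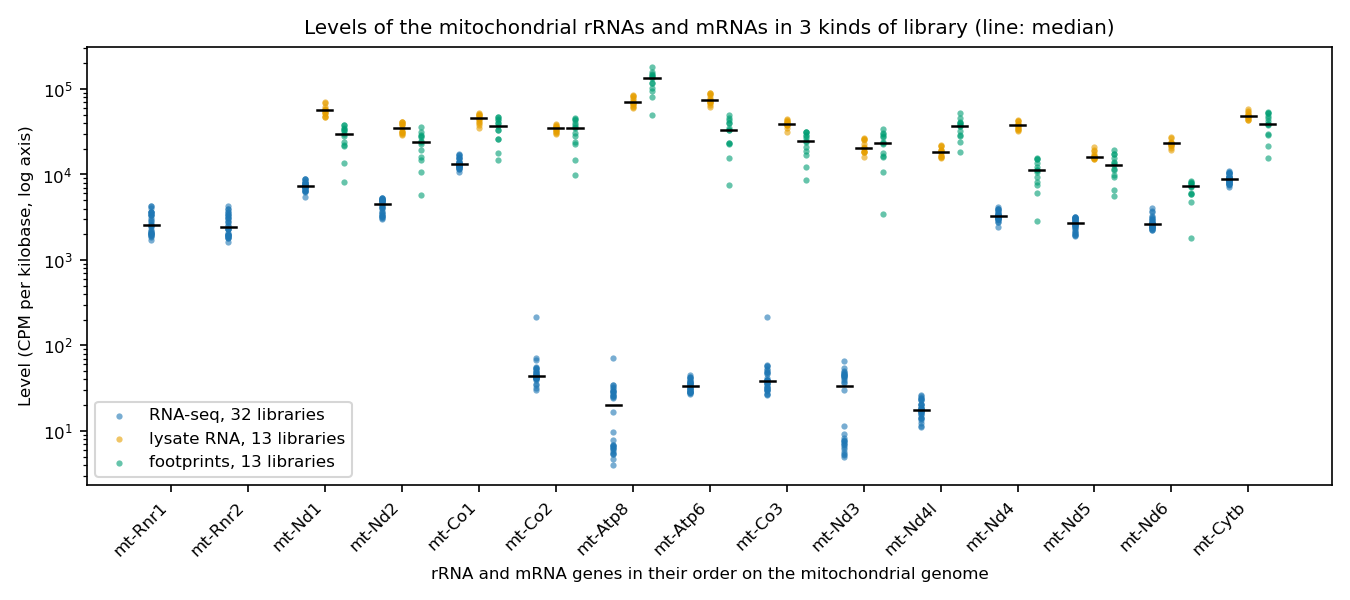
Level of the 13 mRNA and 2 rRNA members in genome order, as CPM per kilobase of gene length on a log axis, in RNA-seq (32 libraries), lysate RNA and footprints (13 libraries each), with a point for each library and a line at the median. The 6 genes from mt-Co2 to mt-Nd4l drop to medians of 17.6 to 44.1 CPM per kb in RNA-seq and stay at 18455 or above in lysate RNA.

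Nuclear copies of this stretch were listed in the RNA-seq tables beside the members. Of the 7 annotated copies looked for (Gm10222, Gm10925, Gm28437, Gm28438, Gm28439, Gm28661 and Gm29216), all were in the RNA-seq tables and 0 in the lysate and footprint tables. Their summed level was 111 to 300.7 CPM (median 154) in RNA-seq. RefSeq's mm10 annotation places Gm10925 at chr1:24613971-24614651 with 681 bases, the length of mt-Atp6, and Gm10222 at chr1:24612404-24612700 with 297 bases, the length of mt-Nd4l. How the submitters treated reads that match both a member and a copy is not given in the sources used here. The counts of the 6 genes in RNA-seq are therefore uncertain, and the part that such reads play was not tested. Neighbouring members also share bases: mt-Atp8 and mt-Atp6 overlap by 43, mt-Nd5 and mt-Nd6, which lie on opposite strands, by 14, mt-Nd4l and mt-Nd4 by 7 and mt-Atp6 and mt-Co3 by 1.

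The 22 tRNA genes held little of any RNA-seq library, 0.00644 to 0.0135% of its counts in sum. They are 59 to 75 bases long, shorter than the read length in the study's methods. Mature tRNA and uncut precursor cannot be told apart in these counts, here and below. mt-Tp (proline) was highest at a mean of 52.2 CPM, followed by mt-Tn (asparagine) at 11.18 CPM and mt-Tm (methionine) at 9.17 CPM. mt-Td (aspartate) had no count in any of the 32 libraries, which allows up to 0.0458 to 0.256 CPM (3 counts of each library's total). mt-Tk (lysine) had 1 count in all libraries together, mt-Ts1 29, mt-Tf 48 and mt-Tv 93. mt-Ts1, mt-Td and mt-Tk lie between mt-Co1 and mt-Atp8.

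The mt- mRNA share of counts did not separate genotypes in any of 8 comparisons. In RNA-seq it lay between 4.34 and 6.64% in all 32 libraries, with line means of 5.37% ± 0.294 (SD, n = 16) in 3g and 5.35% ± 0.739 (SD, n = 16) in 16p11.2. In bulk tissue, fewer cells of a type and less RNA per cell cannot be told apart, and a share also falls when other RNA rises. Shares are sums over the members and are given with no test.

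In 3g males the share was 5.33% ± 0.347 (SD, n = 4) in del/+ and 5.32% ± 0.494 (SD, n = 4) in wt, a difference of 0.0099 percentage points. The wt males 17, 24, 26 and 34 stood at 6.01, 5.11, 5.30 and 4.87%, and the del/+ males 25, 27, 32 and 33 at 5.14, 5.01, 5.80 and 5.36%. Male 17 was the highest of all 16 libraries of the line, and without it the difference was 0.240 points, still with overlap. The 3g females differed by 0.0275 points, from wt values of 5.50, 5.47, 5.44 and 5.22% and del/+ values of 5.14, 5.53, 5.52 and 5.55%.

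In 16p11.2 males the difference was larger but so was the spread. The wt males 1 to 4 held 4.88, 5.18, 4.996 and 4.79%, and the del/+ males 6.04, 5.08, 6.64 and 4.34%, so del/+ males included both the highest and the lowest share of the line. Means were 5.53% ± 1.02 (SD, n = 4) in del/+ and 4.96% ± 0.168 (SD, n = 4) in wt. The difference of 0.564 points was 0.958 without del/+ male 4, and leaving out any other library gave 0.191 at the least. In 16p11.2 females, wt held 6.05, 6.25, 4.71 and 4.44% and del/+ 4.71, 6.29, 6.01 and 5.24%. Their difference of 0.203 points was 0.487 without the library labelled female 1.

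The tRNA share, small as it is, was the only class share whose groups did not overlap. The del/+ males 1 to 4 of the 16p11.2 line held 0.00893, 0.00998, 0.0107 and 0.0116% of counts and the wt males 0.0069, 0.00866, 0.00644 and 0.00799%. Every del/+ male was above every wt male, with or without del/+ male 4. Females of that line differed by -0.000272 points with overlap, and both sexes of the 3g line overlapped. The library labelled del/+ female 1, male by its Xist and Ddx3y levels, stood at 0.00697%, inside the range of the wt males. Without that library the female difference changed sign.

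In lysate RNA the 13 genes held 37.7 to 51.8% of counts. The 3g wt males 1 to 3 stood at 42.6, 44.2 and 42.7% and the del/+ males 1 to 3 at 45.2, 40.1 and 37.7%, a difference of -2.14 points. The 16p11.2 wt males 1 to 4 stood at 40.5, 49.8, 41.4 and 50.4% and the del/+ males 1 to 3 at 46.4, 44.4 and 51.8%, a difference of 2.02 points. Groups overlapped in both lines.

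**Figure D2:**
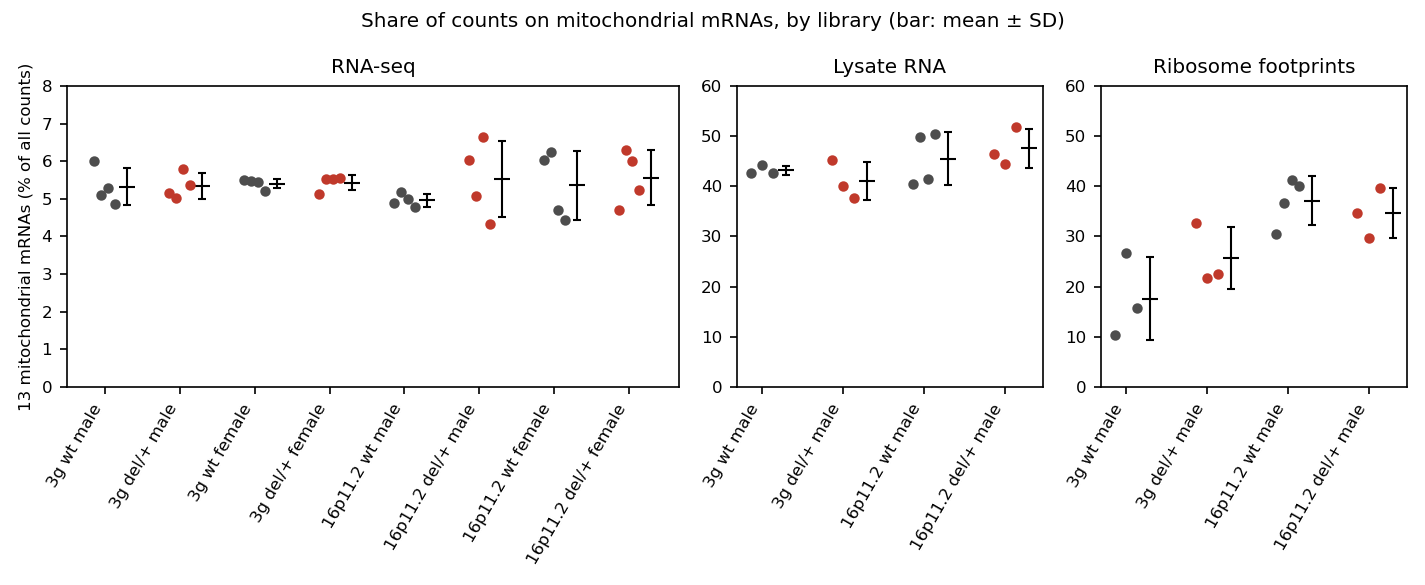
Share of all counts in the 13 mt- mRNA genes, in percent, for each library (points) of every group in RNA-seq, lysate RNA and footprints, in grey for wt and red for del/+, with bars for the mean and SD of each group. Genotypes overlap in every comparison, and the footprint share of 3g wt males runs from 10.4 to 26.7%.

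No member was called in any genotype comparison of RNA-seq. Differences are log2 fold changes of del/+ against wt from edgeR's quasi-likelihood test, with p-values adjusted by Benjamini-Hochberg over all genes tested and a threshold of 0.05. P-values measure the spread between these mice. In 3g males 0 of 29 members tested were called (2 at an unadjusted p under 0.05, 0 by DESeq2), beside a percent_called of 0 over all genes. In 3g females it was 0 of 30 (3 unadjusted, 0 by DESeq2), beside 0.00526% of all genes. In 16p11.2 males it was 0 of 30 (5 unadjusted, 0 by DESeq2), beside 0.106%, and in 16p11.2 females 0 of 28 (0 unadjusted, 0 by DESeq2), beside 0.144%. Over all genes, 274 of 19081 in 3g males and 2098 of 19024 in 3g females were at an unadjusted p under 0.05 by edgeR. The 16p11.2 males had 1045 of 17957 and the 16p11.2 females 808 of 18067. The sex difference of the genotype effect was called for 0 of 30 members in 3g (1 unadjusted, 0 by DESeq2) and 0 of 31 in 16p11.2 (2 unadjusted, 0 by DESeq2), beside 0% of all genes in both lines. There the unadjusted counts over all genes were 533 of 19830 and 818 of 18870.

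The members with the lowest p-values were tRNA genes of a cluster beside the origin of light-strand replication. In 3g males, mt-Tn stood at 8.75, 11.6, 11.4 and 14.5 CPM in wt and at 15.03, 14.9, 19.2 and 16.1 CPM in del/+. The groups did not overlap, as for 1 of 29 members and 1.95% of all genes. The difference was 0.48 (SE 0.14, adjusted p = 0.974 by edgeR), with an exact two-sided permutation p of 0.0286, the smallest that 4 against 4 libraries allow. Groups of 4 that do not overlap always give this value, so here and below it only restates the lack of overlap. Without wt male 17 the difference was 0.40. In 3g females mt-Tn differed by 0.24 (SE 0.08, adjusted p = 0.316 by edgeR) with overlap.

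In 16p11.2 males mt-Tn was 3.77, 7.06, 4.90 and 6.85 CPM in wt and 8.29, 8.86, 8.76 and 19.4 CPM in del/+, a difference of 0.94 (SE 0.29, adjusted p = 0.742 by edgeR). Its neighbour mt-Tc (cysteine) was 3.82, 6.10, 4.26 and 4.85 CPM in wt and 7.23, 7.60, 7.28 and 13.2 CPM in del/+, a difference of 0.84 (SE 0.22, adjusted p = 0.742 by edgeR). Both had an exact permutation p of 0.0286. In both genes del/+ male 4 was the highest, and without it the differences were 0.60 for mt-Tn and 0.62 for mt-Tc. In 16p11.2 females mt-Tn differed by -0.31 and mt-Tc by -0.07, with overlap, and by -0.29 and 0.01 without the library labelled del/+ female 1. The difference of the genotype effect between the sexes was -1.25 (SE 0.40, adjusted p = 0.835 by edgeR) for mt-Tn and -0.91 (SE 0.34, adjusted p = 0.835 by edgeR) for mt-Tc. Without del/+ male 4 it was -0.88 for mt-Tn and -0.67 for mt-Tc, and without del/+ female 1 it was -1.24 and -0.83. mt-Te (glutamate), next to mt-Nd6, differed by 0.98 (SE 0.40, adjusted p = 0.742 by edgeR) between the 16p11.2 males, and by 0.71 without del/+ male 4. The largest difference there, 0.99 (SE 0.83, adjusted p = 0.781 by edgeR) for mt-Tl2 (leucine), turned to -0.65 without that library.

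Of the mRNA genes, mt-Nd5 did not overlap between the 16p11.2 males. It encodes a large membrane subunit of complex I and stood at 3615, 4166, 3470.3 and 3953 CPM in wt and 4787, 4293, 5801 and 4689.7 CPM in del/+. The difference was 0.33 (SE 0.14, adjusted p = 0.742 by edgeR, exact permutation p = 0.0286). With mt-Tn and mt-Tc it made 3 of 30 members without overlap, beside 3.85% of all genes. mt-Nd6, the only mRNA gene of the light strand, differed by 0.36 (SE 0.15, adjusted p = 0.742 by edgeR) in these males. In 3g females mt-Nd6 was the 1 of 30 members without overlap, beside 5.66% of all genes, with wt at 1371, 1359, 1354 and 1271 CPM and del/+ at 1403, 1438, 1607 and 1377 CPM. That difference was 0.14 (SE 0.05, adjusted p = 0.367 by edgeR, exact permutation p = 0.0286). In 16p11.2 females no member was without overlap, beside 2.91% of all genes.

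The remaining large differences each came from 1 library. mt-Nd3 of complex I stood at 22.7, 3.20, 2.53 and 2.86 CPM in 3g wt males and at 4.01, 1.85, 1.73 and 1.84 CPM in del/+, a difference of -1.90 (SE 0.77, adjusted p = 0.974 by edgeR, exact permutation p = 0.286) that was -0.40 without wt male 17. The difference between the sexes for mt-Nd3, 1.93 in the 3g line, was 0.41 without it. mt-Co3 in 16p11.2 males was 30.4, 169, 36.6 and 30.98 CPM in wt, and its difference of -0.98 became 0.04 without wt male 2. mt-Co2 in 16p11.2 females was 28.4, 31.01, 46.2 and 146 CPM in del/+, and its difference of 0.92 became 0.11 without del/+ female 4 and 1.17 without the library labelled female 1. mt-Atp8 in 3g females was 5.27, 5.94, 14.5 and 6.64 CPM in wt, and its difference of -0.47 became -0.03 without wt female 35. All 4 genes belong to the nearly missing stretch.

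The mRNA genes moved little in the median. Over the 13 mRNA genes the median difference was -0.09 for 3g males and 0.02 for 3g females, and 0.14 and 0.06 for males and females of the 16p11.2 line, beside medians between -0.01 and 0.00 over all genes. 3 of 13 were above 0 in 3g males, 9 in 3g females, and 11 in each sex of the 16p11.2 line. Without wt male 17, 8 of 13 were above 0 in 3g males and the median turned to 0.02. The 16p11.2 medians also moved with single libraries. In males the median was 0.23 without del/+ male 4, 0.20 without del/+ male 2, 0.03 without del/+ male 1 and 0.02 without del/+ male 3. In females it was 0.14 without del/+ female 1, 0.16 without wt female 2 and -0.03 without wt female 4. The rRNA genes differed by -0.05 (mt-Rnr1, SE 0.23) and -0.09 (mt-Rnr2, SE 0.21) in 3g males, and by 0.28 and 0.20 without wt male 17, none of them called.

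**Figure D3:**
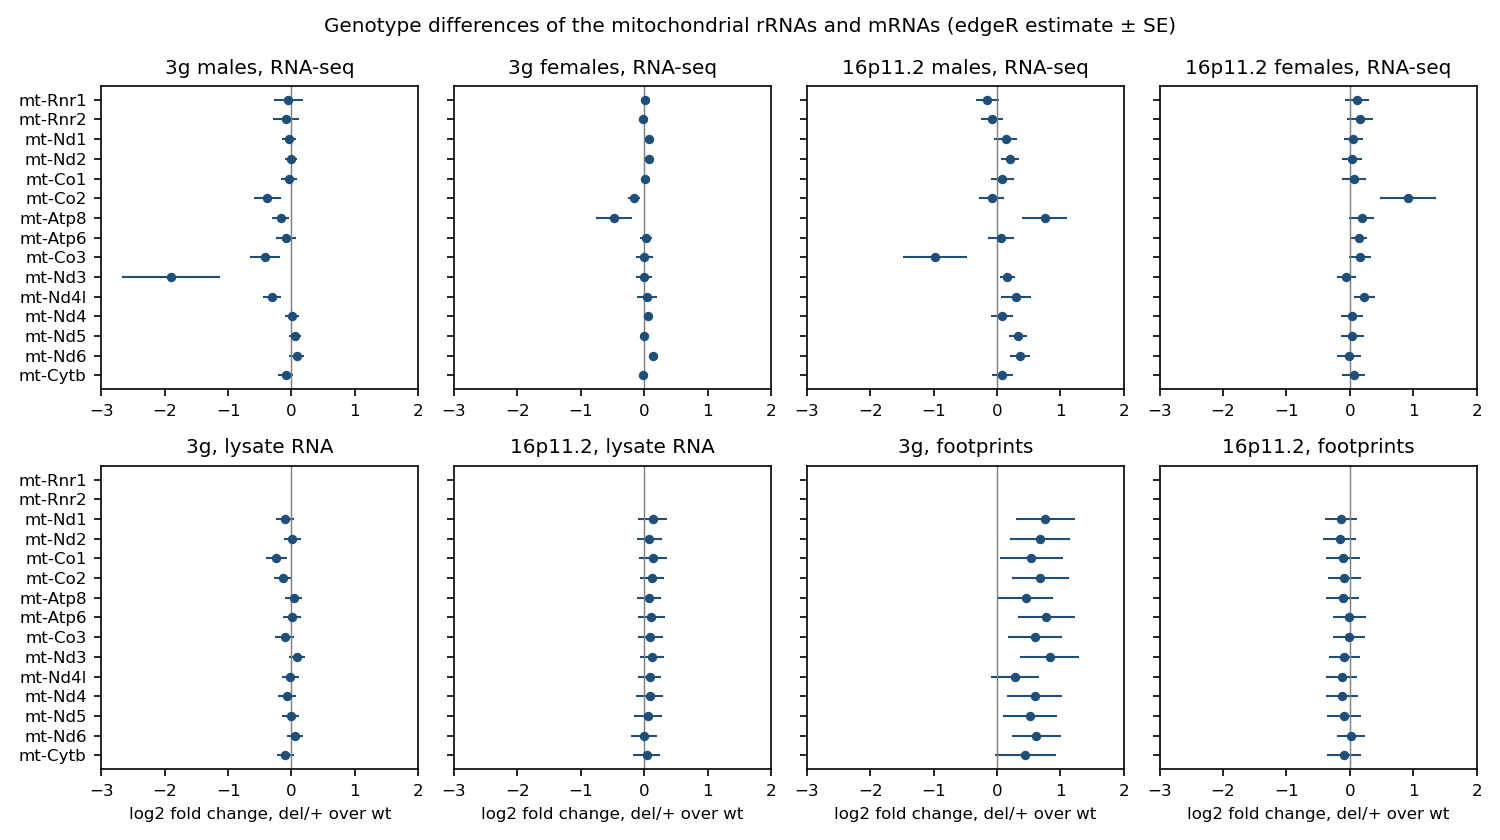
Log2 fold change of del/+ against wt for the rRNA and mRNA members in RNA-seq (by line and sex, upper panels) and for the mRNA members in lysate RNA and footprints (lower panels), as edgeR estimates with bars of 1 standard error. No member is called, and the widest RNA-seq bars belong to mt-Nd3 in 3g males, mt-Co3 in 16p11.2 males and mt-Co2 in 16p11.2 females, each set by 1 library.

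No member was called by edgeR between females and males of wt genotype. In the 3g line 0 of 30 members were called (4 at an unadjusted p under 0.05, 1 by DESeq2), beside 0.0308% of all genes, and in the 16p11.2 line 0 of 30 (0 unadjusted, 0 by DESeq2), beside 0.0336%. Over all genes, 555 of 19458 in 3g and 892 of 17831 in 16p11.2 were at an unadjusted p under 0.05 by edgeR. DESeq2 called 33 of 19458 genes in 3g. The member called by DESeq2 was mt-Nd5, at 4486, 5081, 4976 and 4999 CPM in 3g wt males and 5638, 5691, 5688 and 5426 CPM in females. No male reached the lowest female, and the edgeR difference was 0.18 (SE 0.06, adjusted p = 0.948, exact permutation p = 0.0286). With mt-Nd5, 3 of 30 members did not overlap in 3g, beside 2.95% of all genes. In 16p11.2 it was 0 of 30, beside 3.34%. The largest differences were -1.76 for mt-Nd3 in 3g, where wt male 17 is the high library, and -0.91 for mt-Co3 in 16p11.2, where wt male 2 is, neither called.

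The wt mice of the 2 lines were compared within each sex. The lines were deposited as separate tables, so line and everything else that differs between those tables cannot be told apart. In wt females 15 of 30 members were called, 6 higher and 9 lower in 16p11.2. Over all genes 59.9% were called, 29.8% higher and 30.1% lower, so the members did not exceed the background. In wt males 1 of 30 members was called, mt-Atp8, beside 0.0162% of all genes. Without 3g wt male 17, 15 members were called in males, beside 46.3% of all genes, and without 16p11.2 wt male 2 none was.

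Markers of cortex (a neighbouring region), oligodendrocytes and endothelial cells differed between wt females of the lines, where 59.9% of all genes were called. Over all RNA-seq libraries of each line every marker set overlapped, these 3 included. Astrocyte markers ran from 771 to 930 CPM in 3g and from 782 to 1020 CPM in 16p11.2. Microglia markers ran from 249 to 322 and from 206 to 307 CPM, and projection neuron markers from 5030 to 6477 and from 3690 to 6222 CPM, in the same order. 3 cortex markers (Slc17a7, Neurod6 and Tbr1) summed to 111.1 to 545 CPM in wt females of the 3g line and to 698 to 1086 CPM in those of the 16p11.2 line. 3 oligodendrocyte markers (Mbp, Mog and Mobp) summed to 3577 to 4756 CPM and to 6090 to 8545 CPM, and 3 endothelial markers (Cldn5, Pecam1 and Flt1) to 127 to 138 CPM and to 57.3 to 78.3 CPM, in the same order. None of these 9 genes was at 0 in any RNA-seq library. 3g wt male 17 held 803 CPM of the cortex markers, 7362 CPM of the oligodendrocyte markers and 72.5 CPM of the endothelial markers, against 35.001 to 604 CPM, 2715 to 4756 CPM and 124 to 149 CPM in the other 15 libraries of its line. 16p11.2 del/+ male 4 held 764, 3620 and 154 CPM, against 675 to 1182, 5383 to 9452 and 49.9 to 141 CPM in the other 15 of its line. The part of these cells in the line differences, and in the values of these 2 libraries, was not tested.

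In wt females mt-Nd3 was the mRNA gene with the largest rise in 16p11.2. It lay between 1.73 and 4.01 CPM in 15 libraries of the 3g line and between 10.5 and 19.0 CPM in all 16 of the 16p11.2 line. 3g wt male 17, at 22.7 CPM, was above both ranges. In wt females the difference of 16p11.2 against 3g was 2.76 (SE 0.17, adjusted p = 4.9e-06 by edgeR, exact permutation p = 0.0286). In wt males it was 0.94 (SE 0.67, adjusted p = 0.328 by edgeR), and 2.47 without male 17. With all wt males, mt-Co3 had the larger difference at 1.197, not called, and 0.20 without 16p11.2 wt male 2. The nuclear copy Gm28438 ran the other way: 17.4 to 36.3 CPM in the same 15 libraries of the 3g line, 1.04 to 1.79 CPM in the 16p11.2 line and 1.93 CPM in male 17. Between wt females Gm28438 differed by -3.97 (SE 0.14, adjusted p = 2.1e-07 by edgeR). The sum of mt-Nd3 and Gm28438 was 19.3 to 40.3 CPM in these 15 libraries, 24.7 CPM in male 17 and 11.6 to 20.5 CPM in the 16p11.2 line, ranges that meet. Adding both was a choice made after their values were seen, and a share of reads common to both was not tested.

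mt-Atp8, the smallest ATP synthase gene of the circle, separated all 32 libraries. It stood between 4.89 and 14.5 CPM in the 3g line, male 17 at 5.98 included, and between 0.813 and 3.37 CPM in the 16p11.2 line. The difference was -2.35 (SE 0.21, adjusted p = 0.0061 by edgeR) in wt males and -2.64 (SE 0.34, adjusted p = 9.0e-05 by edgeR) in wt females, each with an exact permutation p of 0.0286. Counts behind it ran from 30 to 725 a library. Lysate RNA, from other mice, did not show this fall. There mt-Atp8 ran from 12391 to 14400 CPM in 3g and from 13893 to 17324 CPM in 16p11.2, with overlap. Since mt-Nd3 and mt-Atp8 moved in opposite directions within the same stretch in RNA-seq, the lines did not differ there by a common factor. A lack of overlap between the lines was common: it held for 55.2% of all genes between wt females and 9.21% between wt males. The share of all genes that separate every RNA-seq library, with or without male 17, was not computed.

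The rRNA genes were higher in the 16p11.2 line. mt-Rnr2 ranged from 2591 to 3677 CPM in the 3g line without male 17 and from 3687 to 6714 CPM in the 16p11.2 line, without overlap, while male 17 stood at 5349 CPM. In wt females mt-Rnr1 differed by 0.79 (SE 0.12, adjusted p = 2.4e-04 by edgeR) and mt-Rnr2 by 0.78 (SE 0.13, adjusted p = 5.2e-04 by edgeR). In wt males the differences were 0.69 and 0.62, not called, and 1.03 and 0.92 without male 17. The 2 rRNA genes held 0.424 to 0.882% of counts in 3g and 0.611 to 1.08% in 16p11.2. Lars2, a nuclear gene that gathers reads of residual cytosolic ribosomal RNA, also differed between the lines. It stood at 67.3 to 128 CPM in 15 libraries of the 3g line and at 1282 CPM in male 17, and at 644 to 2222 CPM in 15 of the 16p11.2 line and at 60.3 CPM in del/+ male 4. Within the 16p11.2 line, Lars2 was 1737 CPM at the lowest rRNA share (0.611%, wt female 4). It was 1956 CPM at the highest (1.08%, del/+ female 2). The lowest Lars2 level of the line, in del/+ male 4, went with an rRNA share of 0.630%. The highest Lars2 level, in wt male 1, went with 0.880%. In the 3g line, male 17 was highest in both, with an rRNA share of 0.882%. The part of rRNA depletion in the rRNA difference was not tested.

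Among tRNA genes the lines differed in both directions. mt-Te stood between 4.43 and 6.42 CPM in the 3g line without male 17 (3.31 CPM) and between 0.509 and 4.15 CPM in the 16p11.2 line, the highest of which was del/+ male 4. In wt females it was lower in 16p11.2 by 1.65 on the log2 scale (log2 -1.65, SE 0.22, adjusted p = 1.3e-04 by edgeR). Also lower were mt-Th (histidine) at -2.12, mt-Tl2 (leucine) at -1.21, mt-Tn at -1.07, mt-Ti (isoleucine) at -0.95, mt-Ty (tyrosine) at -0.67 and mt-Tc at -0.50. Higher was mt-Tr (arginine), whose gene lies between mt-Nd3 and mt-Nd4l, at 0.0685, 0.0473, 0.120 and 0.0153 CPM in 3g wt females and 0.533, 1.05, 0.710 and 0.379 CPM in 16p11.2 wt females. The 3g values of mt-Tr rest on 1 to 6 counts a library, so its fitted difference of 3.504 (SE 0.51) is imprecise. mt-Tg (glycine), on the other side of mt-Nd3, had no count in the 3g line outside male 17 and 0.0269 to 0.752 CPM in every library of the 16p11.2 line. Of the mRNA genes, mt-Co3 at 0.54, mt-Nd6 at 0.34 and mt-Nd4l at -0.42 were called too in wt females. The mRNA genes mt-Nd1, mt-Co1, mt-Nd4, mt-Nd5 and mt-Cytb, which also lie next to called tRNA genes, were not called. When libraries were left out, the call of mt-Tc was lost without any of 5 of the 8 (16p11.2 wt females 1 and 3, 3g wt females 29, 35 and 39, log2 -0.51 to -0.46), that of mt-Nd6 without any of 6 (16p11.2 wt females 1 and 2 and each 3g wt female, 0.20 to 0.35) and that of mt-Nd4l without 3g wt female 29 (-0.38). Of 30 members, 11 did not overlap between wt females, beside 55.2% of all genes, and 9 between wt males, beside 9.21%.

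Across 27 members with a mean of at least 1 CPM, 3g wt male 17 lay outside the range of the 15 other libraries of its line in 15, and 14 of these 15 values lay inside the 16p11.2 range. 16p11.2 del/+ male 4 lay outside its line's range in 15, of which 7 lay inside the 3g range. The next library, 16p11.2 del/+ male 3, was outside in 11 with 4 inside, and no other library exceeded 7.

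**Figure D4:**
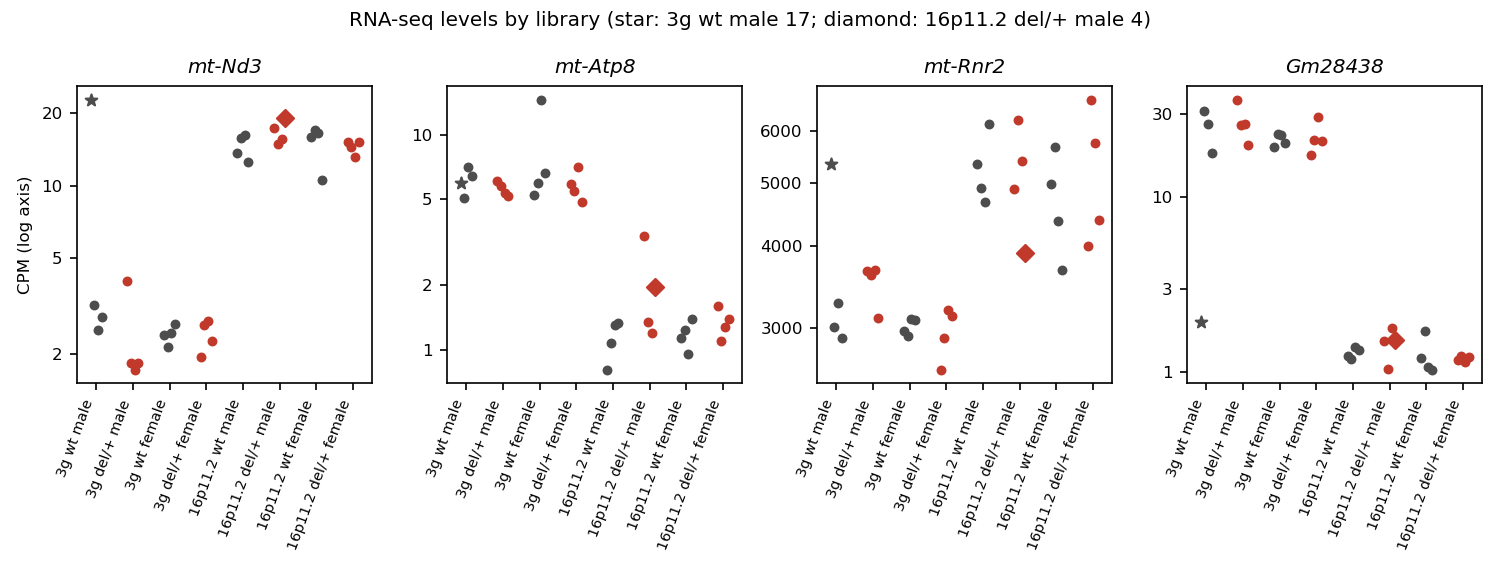
CPM of mt-Nd3, mt-Atp8, mt-Rnr2 and the nuclear copy Gm28438 in each RNA-seq library by group, on a log axis, in grey for wt and red for del/+, with 3g wt male 17 as a star and 16p11.2 del/+ male 4 as a diamond. mt-Atp8 separates all 32 libraries, and mt-Nd3 and mt-Rnr2 separate the lines once male 17 is set aside. Between wt females of the lines, 55.2% of all genes did not overlap.

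Footprints, the mRNA stretches protected by ribosomes, held a smaller mt- mRNA share than lysate RNA of the same animal in 13 of 13 animals. The ratio of the shares was 0.245, 0.604 and 0.367 in 3g wt males 1 to 3, and 0.724, 0.542 and 0.596 in del/+ males 1 to 3. In the 16p11.2 line it was 0.754, 0.735, 0.998 and 0.795 in wt males 1 to 4, and 0.748, 0.668 and 0.766 in del/+ males 1 to 3. 16p11.2 wt male 3 was almost at parity and 3g wt male 1 was the lowest. Each animal gave both libraries, which the fit treats as independent. In wt mice 11 of 13 members were called lower in footprints in the 3g line and none higher, and 8 of 13 were called in the 16p11.2 line, 6 lower and 2 higher. With the animal as a block 11 and 10 were called. Over all genes 44.3% were called in 3g, 20.6% higher and 23.7% lower, and 46.6% in 16p11.2, 21.4% higher and 25.2% lower.

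Within the mt- mRNA pool of an animal, genes differed in how much of the footprints they took. For mt-Nd4 the share of the pool in footprints was 0.424 times that in lysate RNA (median of 13 animals, 0.340 to 0.462), and for mt-Nd6 0.433 times (0.313 to 0.637). mt-Atp6 stood at 0.622, mt-Nd1 at 0.759, mt-Co3 at 0.902 and mt-Nd2 at 0.932, and all 6 were below 1 in 13 of 13 animals. Above 1 in 13 of 13 were mt-Nd5 at 1.12, mt-Co1 at 1.18, mt-Cytb at 1.22, mt-Co2 at 1.39, mt-Atp8 at 2.59 (2.27 to 3.44) and mt-Nd4l at 2.81 (2.42 to 4.51). mt-Nd3, at 1.51, was above 1 in 12 of 13, the exception being 3g wt male 1. The ratios of a pool are bound together, since a gene that takes more leaves less for others.

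The largest contrast lay inside shared transcripts. mt-Atp8 and mt-Atp6 are carried by 1 mRNA on which their reading frames overlap, and so are mt-Nd4l and mt-Nd4. In both, the short upstream gene was above 1 and the long downstream gene below 1 in every animal. Per kilobase, mt-Atp8 had a median of 134296 CPM per kb in footprints against 33335 for mt-Atp6, while in lysate RNA they stood at 70581 and 73863. mt-Nd4l had 37181 against 11141 for mt-Nd4 in footprints, and 18455 against 37584 in lysate RNA. In wt mice of the 16p11.2 line mt-Nd4l at 0.88 (SE 0.21, adjusted p = 0.0018 by edgeR) and mt-Atp8 at 0.76 (SE 0.22, adjusted p = 0.0065 by edgeR) were the 2 members higher in footprints against lysate RNA, while mt-Nd6 at -1.86 (SE 0.19, adjusted p = 1.1e-07 by edgeR) and mt-Nd4 at -1.72 (SE 0.23, adjusted p = 3.3e-06 by edgeR) were the lowest. In 3g wt mice mt-Nd4 was the lowest at -3.14 (SE 0.40, adjusted p = 4.2e-05 by edgeR), and mt-Atp8 and mt-Nd4l were the 2 members not called. The call of mt-Atp8 in 16p11.2 was lost without wt male 3 (0.56). How reads in the bases common to both genes were assigned is not given in the sources used here.

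**Figure D5:**
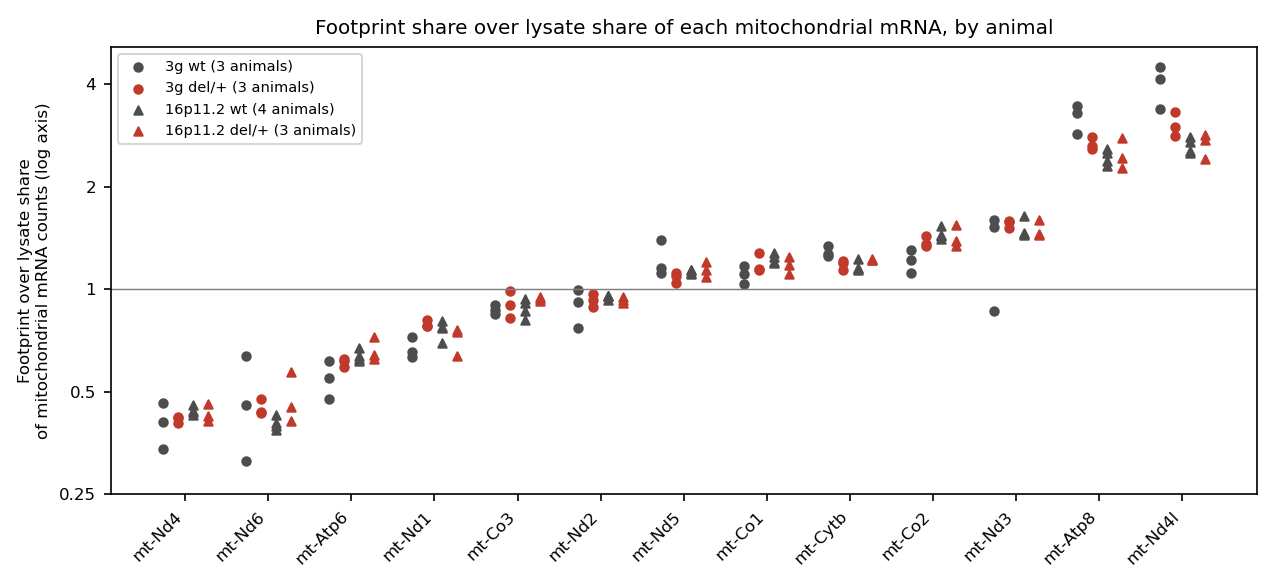
Ratio of a gene's share of mt- mRNA counts in footprints to its share in lysate RNA of the same animal, on a log axis, for the 13 mRNA members in 13 animals, with circles for 3g, triangles for 16p11.2, grey for wt and red for del/+. mt-Nd4 and mt-Nd6 reach at most 0.462 and 0.637, and mt-Atp8 and mt-Nd4l are at least 2.27 and 2.42.

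Genotype did not separate lysate RNA or footprints in any member. Of 13 members 0 were called in lysate RNA of the 3g line (0 unadjusted, 0 by DESeq2), beside 0.0209% of all genes, and 0 in the 16p11.2 line (0 unadjusted, 0 by DESeq2), beside 0.133%. In footprints 0 were called in the 3g line (0 unadjusted, 0 by DESeq2), beside 0.0132%, and 0 in the 16p11.2 line (0 unadjusted, 0 by DESeq2), beside 0.117%. Over all genes, the unadjusted counts by edgeR were 707 of 14378 in 3g and 632 of 14330 in 16p11.2 for lysate RNA. For footprints they were 602 of 7553 and 367 of 5964, in the same order.

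In 3g footprints all 13 members were higher in del/+, by 0.29 to 0.83 with a median of 0.60 beside -0.01 over all genes, and none passed the test. The mt- mRNA share of footprints was 10.4, 26.7 and 15.7% in wt males 1 to 3 and 32.7, 21.8 and 22.5% in del/+ males 1 to 3. Means were 17.6% ± 8.31 (SD, n = 3) and 25.7% ± 6.14 (SD, n = 3), and wt male 2 was above both of the lower del/+ males. mt-Nd3 showed the largest difference at 0.83 (SE 0.46, adjusted p = 0.675 by edgeR). The median was 0.29 without wt male 1, 1.10 without wt male 2 and 0.31 without del/+ male 1. Footprint counts of nuclear genes moved with the genotype as well: they were 306333 to 313497 in wt and 355104 to 530512 in del/+, and the part of depth was not tested. In 16p11.2 footprints the share was 30.5, 36.6, 41.3 and 40.1% in wt and 34.7, 29.7 and 39.7% in del/+, and the median over members was -0.09. The largest difference in 16p11.2 footprints was -0.16 (mt-Nd2), and those in lysate RNA were -0.24 in 3g and 0.14 in 16p11.2, both for mt-Co1.

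Translational efficiency, the change of footprints relative to lysate RNA, was called for 0 of 13 members in 3g (0 unadjusted, 0 by DESeq2), beside 0% of all genes, and for 0 of 13 in 16p11.2 (0 unadjusted, 0 by DESeq2), beside 0.00664%. Over all genes, the unadjusted counts by edgeR were 1161 of 15137 in 3g and 940 of 15071 in 16p11.2. All 13 members were above 0 in 3g with a median of 0.68, and all 13 below 0 in 16p11.2 with a median of -0.29 (12 of 13 with RLE scaling or DESeq2). The 16p11.2 median over all genes was -0.06. The 3g median was 0.34 without wt male 1 and 1.22 without wt male 2, and the 16p11.2 median was -0.04 without wt male 3. mt-Nd1 had the largest value in 3g at 0.89 (SE 0.45, adjusted p = 0.675 by edgeR).

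Nuclear genes that replicate, transcribe and process mitochondrial RNA were read for comparison, 44 genes from mitochondrial RNA polymerase to tRNA modifying enzymes. By edgeR 0 of the 44 were called in each genotype comparison of RNA-seq (at an unadjusted p under 0.05, 0 and 4 in 3g males and females, and 2 and 1 in the 16p11.2 line). Over all genes the unadjusted counts were 274 of 19081 and 2098 of 19024 in 3g, and 1045 of 17957 and 808 of 18067 in 16p11.2. Polrmt, the mitochondrial RNA polymerase, differed by 0.06 and -0.03 in 3g males and females and by -0.02 and -0.16 in 16p11.2 males and females. Tfam, which packages mitochondrial DNA and starts its transcription, differed by -0.15, 0.02, -0.10 and -0.02 in the same order, and Lrpprc, which stabilises mitochondrial mRNAs, by 0.13, 0.07, 0.19 and -0.09. Between wt females of the lines 15 of the 44 were called higher in 16p11.2 and 11 lower by edgeR, beside 29.8% and 30.1% of all genes.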

How the data were processed

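RNA-seq (total RNA, Ribo-Zero Gold depletion) was run on the striatum of 32 mice, and lysate RNA and ribosome footprints on 13 other mice. The deposited values are raw counts per gene, made by the authors. Per the labels HTSeq counts on mm10 were used for RNA-seq and Bowtie2 on mm39 for lysate and footprint libraries, and the study's methods name bcbio-nextgen. Versions, strand settings and the treatment of reads with several matches are not given in the sources used here. The labels call the molecule polyA RNA and give another read length than the study's methods. Among lysate counts, all 22 with 7 or more digits, all in mt- genes, end in 0, so they appear rounded.

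Gene symbols came from the supplied name table (123 RNA-seq genes had none), lengths and positions from RefSeq GRCm38.p6. No mitochondrial sequence was used here. Members, gene lists and tests were chosen with earlier results of these data known. Named genes were the mRNA and rRNA members, the 3 highest tRNAs, members with no count, those called, and the largest difference of each comparison. mt-Nd5 between wt sexes, mt-Tg, mt-Tk, mt-Ts1, mt-Tf and mt-Tv were named after their values were seen, as were tRNA genes that did not overlap and mt-Te.

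Shares and CPM were computed over all counts of a library. Differences were fitted with edgeR 4.0.16 (R 4.3.3, filterByExpr, TMM, glmQLFit, glmQLFTest) over all genes with only the compared groups, Benjamini-Hochberg adjusted, threshold 0.05. The standard error is the fold change over the root of F. Exact permutation tests were two-sided on TMM-scaled CPM. Scripts were tested on simulated counts. Alternatives were DESeq2 1.42.0, RLE scaling, scaling on nuclear genes, no filter, all 16 libraries of a line, a replicate block and leaving out each library. Lysate and footprint libraries of an animal are paired by their shared lysate, and their deviations from group means correlated at r = 0.03 to 0.54 over 13 animals. 1 cortex and 1 oligodendrocyte marker are not reported here, so those sums hold the other 3 of each list, a choice made after the values were seen.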

Additional observations from a re-analysis of the deposited data

Results flagged for a closer look

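A library was set apart when its gap to the nearest of the other 3 in its group exceeded Dixon's critical value of 0.829 of the group's range, over the shares and the named members in groups of 4. This held for 26 of 252 groups (10.3%), and chance gives about 1 in 20. No explanation was weighed.

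In 3g wt male 17 the rRNA share was 0.882% against 0.473 to 0.522% in the other wt males. In the same library mt-Nd3 was 22.7 CPM, mt-Rnr1 3467 CPM, mt-Rnr2 5349 CPM and mt-Tr 0.458 CPM, each the highest of its group. In 16p11.2 del/+ male 4 mt-Tc was 13.2 CPM, mt-Tl2 2.87 CPM, mt-Tn 19.4 CPM and mt-Tr 1.39 CPM, again the highest of the group.

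Isolated high values in the nearly missing stretch were mt-Atp8 at 14.5 CPM in 3g wt female 35, mt-Co2 at 146 CPM in 16p11.2 del/+ female 4, mt-Co3 at 169 CPM in 16p11.2 wt male 2 and at 32.9 CPM in 3g wt female 39, and mt-Nd3 at 4.01 CPM in 3g del/+ male 25. mt-Nd3 was low at 10.5 CPM in 16p11.2 wt female 4.

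In 3g wt female 39 mt-Cytb was 9929.6 CPM and mt-Te 4.64 CPM, both the lowest of the group. In 3g del/+ female 28 the mRNA share of 5.14% and mt-Tp at 55.9 CPM were the lowest. mt-Rnr2 was low at 3107 CPM in 3g del/+ male 33, and mt-Ty at 1.14 CPM in 16p11.2 wt male 3. High values were mt-Tc at 7.58 CPM in 3g wt male 34, mt-Ti at 1.71 CPM in 3g del/+ female 37, mt-Tl2 at 2.79 CPM in 3g del/+ female 36, mt-Tn at 8.61 CPM in 16p11.2 wt female 2, and mt-Tr at 0.0309 CPM in 3g del/+ female 31, where the other 3 libraries had no count.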

How the results depend on the processing

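Of 226 counts of called members under another setting, 221 stayed within 1.5 times the reported count, and of 352 refitted differences of called members 331 stayed past the threshold, 21 lost it and 0 reversed. In every genotype comparison the count of called members was 0 under all settings run, those without each library included (0 to 0). In wt males between the lines it was 1 by edgeR, 12 by DESeq2 (beside 19.8% of all genes), 5 without the filter on low counts (5.19%), and 0 to 15 when libraries were left out (0 without 16p11.2 wt male 2, 15 without 3g wt male 17, beside 46.3%). In wt females it was 13 to 22, in footprints against lysate RNA 8 to 11 for 3g and 7 to 10 for 16p11.2. The highest counts for 16p11.2 were 9 without the filter on low counts and 10 with the animal as a block. Between the sexes of 3g wt mice DESeq2 called 1 member, beside 33 of 19458 genes. The share differences kept within 1 SD in 69 of 70 values. The other, in lysate RNA of the 3g line, is in another unit, -5.91 counts per 100 nuclear counts (pooled SD 8.27) beside -2.14 percentage points (pooled SD 2.80), and each is smaller than its own SD. Leaving out libraries, share differences in percentage points ran from -0.148 to 0.240 in 3g males, -0.0357 to 0.126 in 3g females, 0.191 to 0.958 in 16p11.2 males, -0.103 to 0.499 in 16p11.2 females, -4.24 to -0.471 and -0.105 to 3.65 in lysate RNA and 4.46 to 12.6 and -4.94 to 0.0707 in footprints (3g, then 16p11.2).

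With the replicate number as a block, 0 members were called in the 16p11.2 RNA-seq comparisons and in translational efficiency, and in footprints against lysate RNA 11 were called in 3g and 10 in 16p11.2, where the fit without it called 8. In 16p11.2 RNA-seq, libraries with the same number shared only the number (r = -0.26 to 0.11). Counts of 1 to 6 limit mt-Tr, and the footprint libraries, at most 678130 counts each, limit single-member differences there.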

Other observations

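2 nuclear copies of mitochondrial DNA showed the same kind of isolated value as the members of the nearly missing stretch. Gm10925 stood at 159 CPM in 3g del/+ female 36, where its median over 32 libraries was 25.2 CPM. Gm28437 stood at 121 CPM in 16p11.2 del/+ male 2, beside a median of 26.1 CPM. In each of the 2 libraries the summed level of the 6 members lay within the range of the other libraries of their line. These values were noticed after the data were seen.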
